A study of Mus musculus with 3 samples.

Results

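Adipogenic and stem fibro-adipogenic progenitors (FAPs) were followed through regenerating mouse muscle as estimated fractions of the transcripts in spots of spatial RNA sequencing. A spot was a member if the fraction assigned to adipogenic FAPs or to stem FAPs was at least 0.02, and 629 of 2758 spots met this rule. Comparators were the 1412 spots in which both fractions were under 0.01. The remaining spots lay between these limits and entered only the values given over all spots.

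Sections of tibialis anterior muscle came from female C57BL/6J mice aged 5 months, whose muscle had been injured with notexin, a snake venom phospholipase that destroys myofibers. There was 1 section at each of 2, 5 and 7 days post injury (dpi), with 859, 933 and 966 spots, and no uninjured section among them. Each Visium spot is a small capture region under a few cells or a piece of a fiber, and its transcripts are counted as unique molecular identifiers (UMIs). The authors used BayesPrism with a single-cell reference of mouse muscle to assign the transcripts of each spot to 27 cell types, and the fraction given to a type is called theta.

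FAPs are mesenchymal cells that lie between myofibers and near vessels, and express the receptor Pdgfra. After injury they expand, secrete matrix and signals that act on muscle stem cells (MuSCs), and are later cleared, and they are the main source of fat cells in muscle that repairs poorly. Dpp4 and Cxcl14 are known markers of distinct FAP states in resting muscle. Gene-level counts were not analysed here, so Pdgfra, Dpp4 and Cxcl14 could not be set beside the thetas, and the subset names rest on the reference alone.

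With 1 section per time point, the time point, the animal and the capture area cannot be told apart. Spots of a section are not replicates, so no p-value is given, and an exact sign-flip permutation test over 3 sections could give no two-sided p below 0.25. Theta is a fraction of transcripts, and fewer cells of a type cannot be told apart from less RNA per cell. Depth differed between sections, with a median of 5786, 11221 and 15135 UMIs per spot at 2, 5 and 7 dpi. The sections shared 505 spot barcodes, which mark the same array position and not shared tissue.

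Adipogenic FAP theta was higher at each later time point when averaged over spots. Mean theta over the 2, 5 and 7 dpi sections was 0.00921, 0.0120 and 0.0155, a ratio of 1.69 between 7 and 2 dpi. The middle of the distribution differed less, with medians of 0.00668, 0.00636 and 0.00818 at 2, 5 and 7 dpi, and the median at 5 dpi was below that at 2 dpi. The upper part of the distribution held most of the difference, with 90th percentiles of 0.0176, 0.0258 and 0.0341, and the highest spot reached 0.113, 0.179 and 0.429. Without the 10 highest spots of each section the ratio of means between 7 and 2 dpi was 1.59, and among spots with 5000 to 10000 UMIs it was 1.75.

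Stem FAP theta was lowest at 5 dpi. Mean theta over the 2, 5 and 7 dpi sections was 0.0112, 0.00747 and 0.0103. Section means stood in ratios of 0.665 (5 over 2 dpi), 1.38 (7 over 5 dpi) and 0.920 (7 over 2 dpi). The medians were 0.00648, 0.00469 and 0.00511, so the typical spot at 7 dpi was closer to 5 dpi than the mean was. The highest stem FAP spot was at 0.127, 0.115 and 0.233.

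The denominator mattered for both subsets, because myonuclei of mature fibers took most of the theta in these sections. After the type IIb and type IIx myonuclei were taken out and each spot was brought back to a total of 1, the ratio for adipogenic FAPs between 7 and 2 dpi was 1.29. On this rescaled theta the stem FAP ratios were 0.926 between 5 and 2 dpi and 1.02 between 7 and 5 dpi, so most of the lower level at 5 dpi was not seen.

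**Figure D1:**
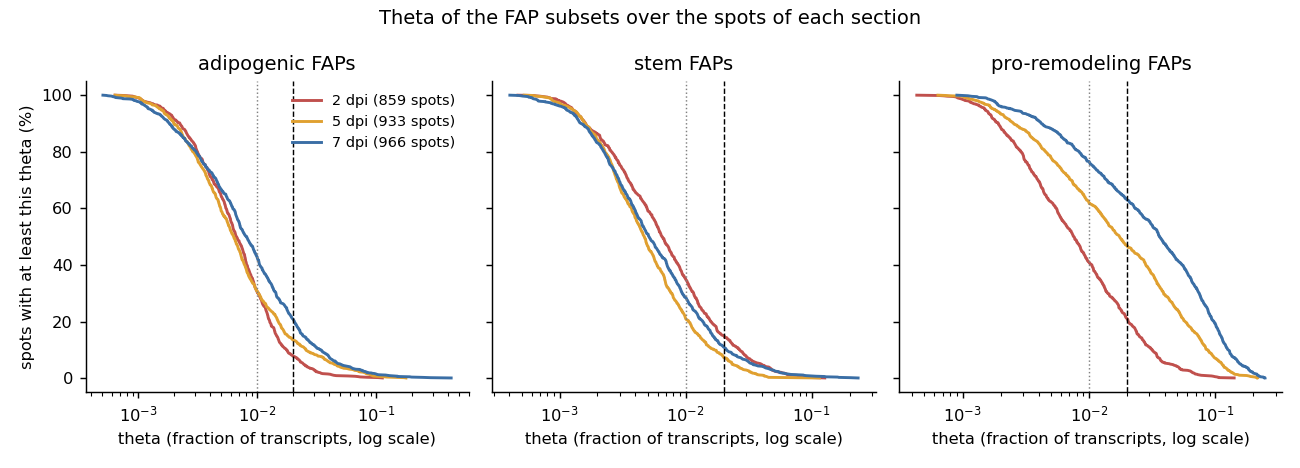
Percent of spots (vertical axis) with at least a given theta (horizontal axis, log scale) for adipogenic, stem and pro-remodeling FAPs, with a line per section and vertical lines at 0.01 (dotted) and 0.02 (dashed). The 7 dpi line lies highest above 0.01 for adipogenic FAPs, the 2 dpi line lies highest between 0.01 and 0.02 for stem FAPs, and the 3 lines are widely apart only for pro-remodeling FAPs.

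Counted as spots at or above 0.02, stem FAPs led at 2 dpi and adipogenic FAPs at 5 and 7 dpi. By other measures adipogenic FAPs were the higher subset at 2 dpi too, with a median of 0.00668 against 0.00648, a mean rescaled theta of 0.0454 against 0.0409, and adipogenic above stem theta in 53.0% of spots. At 2 dpi, 129 spots reached 0.02 for stem FAPs (15.0%, exact Clopper-Pearson 95% interval 12.7 to 17.6%) and 67 for adipogenic FAPs (7.80%, 6.10 to 9.80%). At 5 dpi, 70 spots did so for stem FAPs (7.50%, 5.90 to 9.38%) and 125 for adipogenic FAPs (13.4%, 11.3 to 15.8%). At 7 dpi, the counts were 106 for stem FAPs (10.97%, 9.07 to 13.1%) and 202 for adipogenic FAPs (20.9%, 18.4 to 23.6%). The intervals cover the counting of spots only and treat spots as independent, which spots of a section are not. Both counts of a section come from the same spots, so the intervals do not test the difference between the subsets. Members with either subset were 179 (20.8%), 181 (19.4%) and 269 (27.8%) spots at 2, 5 and 7 dpi. The share at 7 dpi was 1.44 times that at 5 dpi and 1.34 times that at 2 dpi, and on rescaled theta these ratios turned to 0.921 and 0.899.

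The order of the subsets was the same among spots of 5000 to 10000 UMIs, where stem FAPs reached 0.02 in 16.4%, 9.41% and 9.20% of spots and adipogenic FAPs in 6.89%, 12.5% and 20.9%. Members were nonetheless more frequent in shallow spots. In 5 groups of spots of equal size by UMI count, members made up 29.7% of the shallowest and 10.5% of the deepest group at 2 dpi, 23.0% and 16.0% at 5 dpi, and 41.8% and 16.1% at 7 dpi. Counted from the shallowest, the course was not steady, with 28.1% in group 3 at 2 dpi and 30.1% in group 4 at 7 dpi. At 5 dpi, adipogenic FAPs reached 0.02 in 16.0% of the shallowest and 15.0% of the deepest group, and stem FAPs in 10.2% and 2.14%. At the limit of 0.02 there was no gap between members and other spots: the lowest member and the highest spot outside it stood at 0.02003 and 0.01991 at 2 dpi, 0.02002 and 0.019998 at 5 dpi, and 0.02006 and 0.01990 at 7 dpi. The place of the adipogenic subset among all 27 types by mean theta was 15 at 2 dpi and 6 at 5 and 7 dpi, and that of the stem subset was 11 at 2 dpi and 9 at 5 and 7 dpi.

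The balance among the 3 FAP types moved away from these subsets. Adipogenic and stem FAPs together made up 60.6%, 37.1% and 32.4% of the summed FAP theta, and pro-remodeling FAPs the remaining 39.4%, 62.9% and 67.6%. The stem share was 33.3%, 14.2% and 13.0%, and the adipogenic share 27.3%, 22.9% and 19.5%. The adipogenic share was thus lower at 7 dpi although the mean theta of the subset was higher, since the mean summed FAP theta was 0.0337, 0.0525 and 0.0798. Within a spot these shares do not depend on myonuclei, while the shares of the sums weight spots by their FAP theta. With every spot weighted equally, the joint share was 63.9%, 47.3% and 41.2%. Adipogenic plus stem theta exceeded pro-remodeling theta in 82.1% (79.3 to 84.6%), 50.1% (46.8 to 53.3%) and 39.6% (36.5 to 42.8%) of spots. Weighting spots by UMIs, the joint share was 57.8%, 31.4% and 23.9%.

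**Figure D2:**
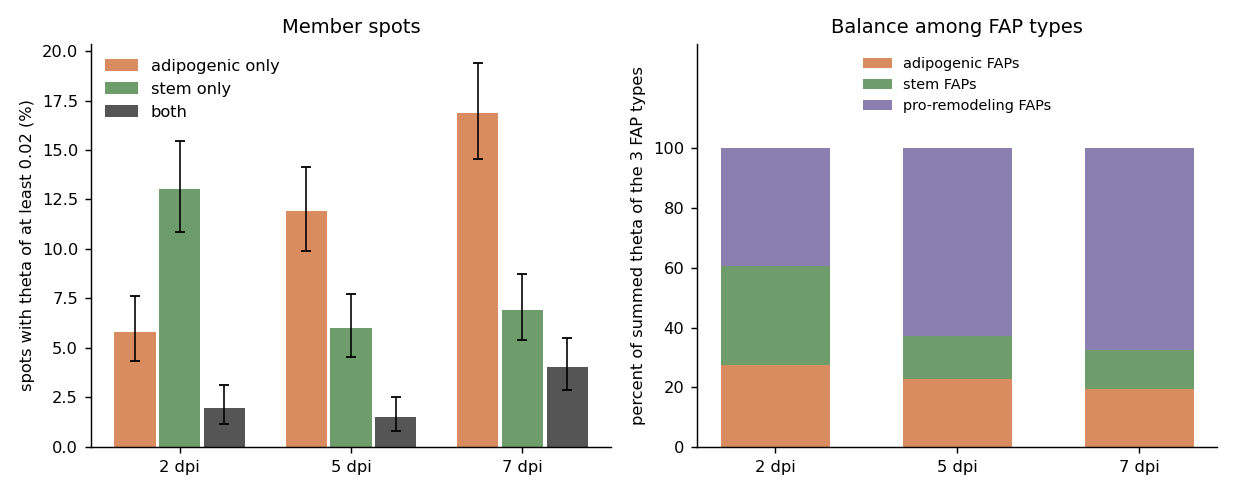
Left, percent of the spots of each section with theta of at least 0.02 for adipogenic FAPs only, stem FAPs only or both (bars; error bars, 95% Clopper-Pearson limits from the number of spots), and right, the percent of summed FAP theta held by each of the 3 FAP types. Stem-only spots lead at 2 dpi and adipogenic-only spots at 5 and 7 dpi, while the pro-remodeling share goes from 39.4% to 67.6%.

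Adipogenic and stem FAPs shared spots more often than independent placement would give in all 3 sections. Spots in which both reached 0.02 numbered 17, 14 and 39, against 10.1, 9.38 and 22.2 expected from the product of the spot counts. The ratios of observed to expected were 1.69, 1.49 and 1.76. With the expectation formed within the 5 UMI groups they were 1.48, 1.51 and 1.54. At a limit of 0.01 the ratios were 1.601, 1.33 and 1.37. Most spots of either subset still lacked the other: the shared spots were 25.4% of adipogenic and 13.2% of stem FAP spots at 2 dpi, 11.2% and 20% at 5 dpi, and 19.3% and 36.8% at 7 dpi. The pair did not stand out at 2 dpi, where adipogenic and stem FAPs, each with pro-remodeling FAPs, gave ratios of 2.05 and 1.99 at 0.02. At 5 and 7 dpi those ratios were lower, at 1.08 and 0.848 for adipogenic and 0.976 and 1.05 for stem FAPs. No test was made of these ratios.

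Over all spots the thetas of the subsets were positively related. Spearman's rho between adipogenic and stem FAPs was 0.53 (859 spots), 0.40 (933 spots) and 0.37 (966 spots). It was 0.42, 0.38 and 0.50 on theta rescaled without myonuclei. Over all types other than myonuclei, the median raw rho of adipogenic FAPs was 0.44, 0.41 and 0.23. That of stem FAPs was 0.61, 0.33 and 0.23. The raw value of the pair was thus below the stem FAP median at 2 dpi and the adipogenic FAP median at 5 dpi. On rescaled theta the medians were 0.26, 0.35 and 0.39 for adipogenic and 0.15, 0.39 and 0.35 for stem FAPs. These correlations describe spots that share a section and a sum of 1, and depth moved with them. Theta of either subset was higher in shallower spots, with rho against the UMI count of -0.38, -0.29 and -0.39 for adipogenic FAPs and -0.38, -0.40 and -0.37 for stem FAPs. The lowest theta of a spot, whichever type had it, was also related to the UMI count, at -0.82, -0.75 and -0.76. The median spot gave adipogenic FAPs a theta 3.16, 6.02 and 8.64 times the lowest of the spot and stem FAPs 3.03, 4.52 and 5.70 times, so many values at 2 dpi lay near the floor of the estimate. Holding the UMI count constant, the partial rank correlation between the subsets was 0.45, 0.33 and 0.27.

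The relation to pro-remodeling FAPs differed between sections. Between adipogenic and pro-remodeling FAPs, Spearman's coefficient was 0.53, 0.082 and -0.39, and rho of stem with pro-remodeling FAPs was 0.62, 0.12 and -0.13 in the order of the sections. On rescaled theta the order over the sections was the same and the values at 5 and 7 dpi were lower, at 0.41, -0.53 and -0.62 for adipogenic FAPs and 0.30, -0.31 and -0.35 for stem FAPs. Depth moved with the negative values at 7 dpi. Among the 163 spots with 5000 to 10000 UMIs, rho at 7 dpi was 0.0020 for adipogenic and 0.16 for stem FAPs on raw theta, and pro-remodeling theta itself was related to the UMI count with rho of -0.23, 0.20 and 0.30 at 2, 5 and 7 dpi. Holding the UMI count constant, the rank correlation at 7 dpi was -0.31 for adipogenic and -0.025 for stem FAPs. The part of depth in the sign at 7 dpi was not tested further.

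Counts of spots gave the same order for adipogenic FAPs. Spots with at least 0.02 of both adipogenic and pro-remodeling FAPs were 2.05, 1.08 and 0.848 times the number expected at 2, 5 and 7 dpi. For stem and pro-remodeling FAPs the ratios were 1.99, 0.976 and 1.05. At a limit of 0.05, where few spots remained, 5 spots at 5 dpi and 7 at 7 dpi held both adipogenic and pro-remodeling FAPs, 0.571 and 0.350 of the number expected.

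**Figure D3:**
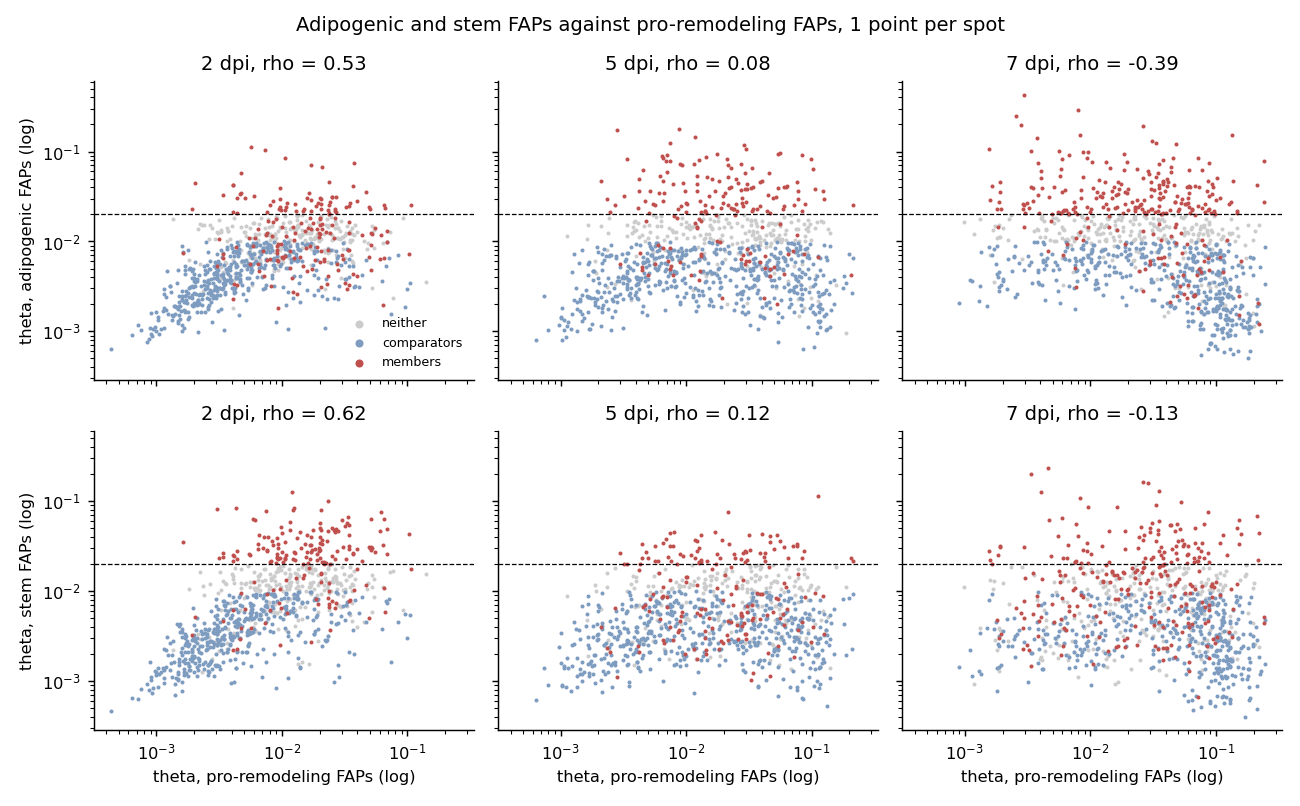
Theta of adipogenic (top) and stem FAPs (bottom) against theta of pro-remodeling FAPs, with a point per spot, log axes, a column per section and a dashed line at 0.02; red points are members, blue points comparators and grey points neither. At 2 dpi the comparators (blue) lie along a rising band at low theta. At 7 dpi adipogenic theta tends to be lower where pro-remodeling theta is higher (rho = -0.39), with exceptions among the highest pro-remodeling spots.

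With the other types, most raw and rescaled correlations of either subset were positive, and which types led depended on the scale. On centred log-ratios, which set each theta against the geometric mean of the 25 thetas of its spot without myonuclei, only 10, 9 and 11 of 24 correlations were positive for adipogenic FAPs and 7, 13 and 11 for stem FAPs, with medians between -0.073 and 0.019. On raw theta, adipogenic FAPs had a positive rho with 25, 24 and 21 of 26 types at 2, 5 and 7 dpi, and stem FAPs with 24, 24 and 21. By the mean of rho over the sections, the 3 types most like adipogenic FAPs on raw theta were activated MuSCs, which have left quiescence after injury (0.46, 0.52 and 0.39), stem FAPs, and committed myoblasts, which have entered myogenic differentiation (0.48, 0.42 and 0.39). For stem FAPs they were activated MuSCs (0.70, 0.42 and 0.41), M1 macrophages, the inflammatory macrophages of early injury (0.70, 0.42 and 0.27), and inflammatory monocytes, blood cells that enter the wound early (0.66, 0.37 and 0.33). The lowest mean rho was with type IIb myonuclei, the nuclei of fast fibers, for adipogenic (-0.41, -0.20 and 0.13) and for stem FAPs (-0.58, -0.083 and 0.015). Type IIx myonuclei, of another class of fast fiber, had rho of 0.068, -0.20 and -0.25 with adipogenic and -0.14, 0.017 and -0.018 with stem FAPs.

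On rescaled theta the types with the highest mean of rho over the sections were mostly those of vessels and nerve. For adipogenic FAPs they were artery endothelial cells (0.57, 0.43 and 0.52), neural cells (0.52, 0.43 and 0.48) and vein endothelial cells (0.50, 0.41 and 0.49). For stem FAPs they were neural cells (0.27, 0.57 and 0.49), adipogenic FAPs and artery endothelial cells (0.27, 0.50 and 0.47). Single sections had other leaders, with activated MuSCs highest for adipogenic FAPs at 5 dpi (0.44) and committed myoblasts highest for both subsets at 7 dpi (0.58 and 0.54). On raw theta neural cells had rho of 0.43, 0.36 and 0.29 with adipogenic and 0.43, 0.42 and 0.35 with stem FAPs. Artery endothelial cells had raw rho of 0.36, 0.30 and 0.21 and of 0.38, 0.20 and 0.21, and vein endothelial cells of 0.42, 0.34 and 0.27 and of 0.48, 0.28 and 0.21. Among the 163 spots of 5000 to 10000 UMIs at 7 dpi, raw rho of neural cells was -0.050 with adipogenic and -0.0085 with stem FAPs. Capillary endothelial cells had rescaled rho of 0.56, 0.35 and 0.43 with adipogenic and 0.23, 0.45 and 0.39 with stem FAPs, against raw values of 0.33, 0.030 and 0.053 and of 0.30, -0.0039 and 0.083. Fusing myocytes, the differentiating muscle cells that form new fibers, had the lowest mean of rho with both subsets after rescaling, at -0.19, -0.53 and -0.60 with adipogenic and -0.084, -0.55 and -0.54 with stem FAPs, although patrolling monocytes were lower with both at 2 dpi and pro-remodeling FAPs were lower with adipogenic FAPs at 7 dpi. On raw theta fusing myocytes stood at 0.30, 0.24 and -0.25 and at 0.54, 0.13 and -0.16, so the sign at 2 and 5 dpi depended on the scale. In spots of 5000 to 10000 UMIs the raw values at 7 dpi were 0.16 with adipogenic and 0.11 with stem FAPs. Rescaling divides by what is left after myonuclei, which is small in spots rich in myonuclei, and so raises the other thetas of such spots together. Its part in the positive values was not tested.

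The remaining types of stroma and of the myeloid line varied with the section. Tenocytes, the cells of tendon and connective sheets, had raw rho of 0.55, 0.43 and 0.22 with adipogenic and 0.48, 0.42 and 0.29 with stem FAPs. Smooth muscle cells, of vessel walls, had raw rho of 0.34, 0.23 and 0.11 with adipogenic and 0.26, 0.15 and 0.10 with stem FAPs. Patrolling monocytes had raw rho of 0.65, 0.33 and 0.13 with stem and 0.36, 0.44 and 0.083 with adipogenic FAPs, and rescaled rho of -0.18, 0.23 and 0.16 and of -0.54, 0.20 and 0.20, so the sign at 2 dpi depended on the scale. Cx3cr1-hi M2 macrophages, a repair-associated class, had raw rho of 0.45, 0.42 and -0.048 with adipogenic and 0.62, 0.27 and -0.067 with stem FAPs, and rescaled rho of 0.14, -0.058 and -0.30 and of 0.063, -0.25 and -0.41, so the sign at 5 dpi depended on the scale. Cx3cr1-lo M2 macrophages had raw rho of 0.50, 0.45 and 0.22 and of 0.67, 0.34 and 0.22.

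**Figure D4:**
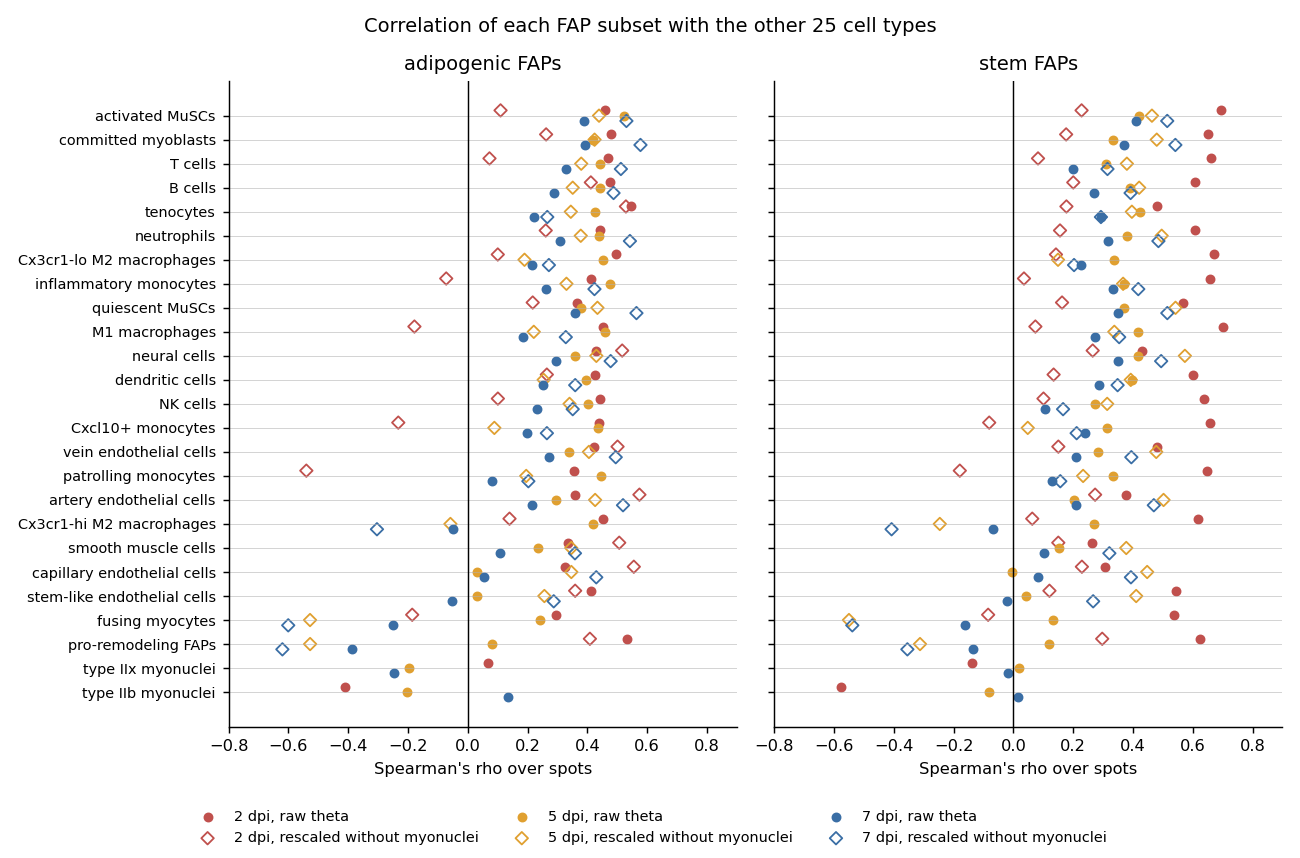
Spearman's rho over the spots of a section between each FAP subset and 25 other types, on raw theta (filled circles) and on theta rescaled without myonuclei (open diamonds; none for myonuclei), with a colour per section. Most points lie to the right of 0, and fusing myocytes and pro-remodeling FAPs have the most negative rescaled values at 5 and 7 dpi, with an exception. For stem FAPs at 7 dpi, Cx3cr1-hi M2 macrophages (-0.41) lie below pro-remodeling FAPs (-0.35).

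Members and comparators were chosen by the thetas of the 2 subsets, so those thetas are given as a description. Members had a mean adipogenic theta of 0.0181, 0.0351 and 0.0372 and a mean stem theta of 0.0294, 0.0159 and 0.0229 at 2, 5 and 7 dpi. Comparators had 0.00457, 0.00446 and 0.00441 for adipogenic and 0.00400, 0.00387 and 0.00374 for stem FAPs. Quantities outside the rule were then compared within each section, with the reservation that all thetas of a spot share a sum of 1.

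Member spots as a group were shallower, with less mitochondrial and more ribosomal protein RNA. The median spot held 4890 UMIs in members and 7071 in comparators at 2 dpi, 10109 and 12196 at 5 dpi, and 13306 and 16728 at 7 dpi. Mitochondrial transcripts were a mean of 18.9% and 32.2% of UMIs at 2 dpi, 15.4% and 26.01% at 5 dpi, and 16.5% and 20.7% at 7 dpi, lower in members each time. Ribosomal protein transcripts were 8.05% and 5.09%, 9.92% and 6.83%, and 8.91% and 7.80% of UMIs. Within groups of like UMI count, the mitochondrial percentage of members was 0.610, 0.588 and 0.763 of that of comparators. The number of genes per spot was 1.05, 1.11 and 0.865 times that of comparators, and 1.249, 1.22 and 1.02 times within UMI groups. By medians, the 67 stem-only spots at 7 dpi were neither shallower nor lower in mitochondrial RNA than comparators. They had 17020 UMIs and 19.2% mitochondrial transcripts, against 16728 and 18.3%. By means these stem-only spots were lower in both, at 14594 UMIs and 18.3% against 17383 and 20.7%.

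Most other types had a higher mean theta in members than in comparators, and myonuclei a lower one. Of 25 other types, 19 (76%) had a mean theta at least 1.5-fold higher in members at 2 dpi, 18 (72%) at 5 dpi and 17 (68%) at 7 dpi, while 1 (4%), 1 (4%) and 2 (8%) were at least 1.5-fold lower. These shares are over all types other than the 2 subsets, so a type that is 1.5-fold higher in members is the rule and not the exception. In all 3 sections, 13 types were at least 1.5-fold higher, 20 were above 1 and 2 were below 1. The last were the myonuclei: type IIb had a mean theta of 0.509 in members and 0.719 in comparators at 2 dpi, 0.506 and 0.642 at 5 dpi, and 0.548 and 0.562 at 7 dpi, and type IIx 0.0337 and 0.0660, 0.0655 and 0.135, and 0.0574 and 0.112. By medians, type IIb at 7 dpi was instead higher in members, at 0.566 against 0.517. On rescaled theta the picture was mixed, with 7 of 23 types above 1 at 2 and 5 dpi and 16 of 23 at 7 dpi.

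Pro-remodeling FAPs went with members at 2 dpi and with comparators at 7 dpi. Their mean theta was 0.0209 in members and 0.00828 in comparators at 2 dpi (ratio 2.52), 0.0297 and 0.0332 at 5 dpi (0.894), and 0.0407 and 0.0679 at 7 dpi (0.599). Within UMI groups the ratios were 2.81, 0.978 and 0.688. The medians gave 4.23, 1.44 and 0.474, so the direction at 5 dpi depended on the summary. Fusing myocytes had mean thetas of 0.0366 and 0.0221 at 2 dpi, 0.156 and 0.0981 at 5 dpi, and 0.103 and 0.146 at 7 dpi, ratios of 1.66, 1.59 and 0.702. On rescaled theta the pro-remodeling ratios were 0.932, 0.608 and 0.573 and the fusing myocyte ratios 0.887, 1.09 and 0.650, so the higher values at 2 dpi were seen only on raw theta.

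Tenocytes and Cx3cr1-lo M2 macrophages were higher in members in every section on raw theta. The ratios of means for tenocytes were 1.93, 3.39 and 2.55, with means in members of 0.0160, 0.0196 and 0.0180, and on rescaled theta 0.989, 1.36 and 1.74. For Cx3cr1-lo M2 macrophages they were 2.88, 2.79 and 2.48, and on rescaled theta 1.26, 1.38 and 1.94, above 1 on both scales in all sections. Cx3cr1-hi M2 macrophages had ratios of 1.98, 3.57 and 1.06 on raw and 0.935, 2.25 and 0.984 on rescaled theta, and at 5 dpi the mean was 0.0320 in members and 0.00896 in comparators. M1 macrophages stood at 3.0, 2.18 and 1.57, inflammatory monocytes at 2.02, 2.45 and 1.88 and patrolling monocytes at 1.92, 1.91 and 1.29. On rescaled theta they stood at 1.51, 1.07 and 1.15, at 1.10, 0.941 and 1.30, and at 1.72, 1.07 and 1.04. Cxcl10+ monocytes, named here after their values were seen, had ratios of 2.15, 2.53 and 2.47 on raw and 1.35, 1.31 and 1.52 on rescaled theta. M1 macrophages, patrolling monocytes and Cxcl10+ monocytes were thus also above 1 on both scales in all sections, with members set on raw theta. Over all spots at 2 dpi, their rescaled rho with adipogenic FAPs was nonetheless negative, at -0.18, -0.54 and -0.23. With stem FAPs the rescaled rho at 2 dpi was 0.074, -0.18 and -0.081. In the later sections the rescaled rho of these types was positive with both subsets. The median patrolling monocyte theta at 2 dpi was 0.0758 in members and 0.00366 in comparators.

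Neural cells had a ratio of 4.49 at 7 dpi, the highest of the types on raw means, from means of 0.0216 in members and 0.00483 in comparators, after 1.99 at 2 dpi and 2.56 at 5 dpi. A few spots carried it: the ratio of medians was 1.94, 1.46 and 1.49, and 1 member spot at 7 dpi reached 0.536. Within UMI groups the ratio at 7 dpi was 2.37, below the 2.57 of tenocytes. Smooth muscle cells were at 1.18, 3.06 and 2.06, with ratios of medians of 1.28, 1.43 and 1.13. Artery endothelial cells were at 1.39, 1.39 and 1.80, vein endothelial cells at 1.72, 1.65 and 2.03 and capillary endothelial cells at 1.43, 1.02 and 1.15. After rescaling the ratios were 0.411, 0.485 and 0.878 for artery, 0.574, 0.612 and 1.09 for vein and 0.374, 0.356 and 0.712 for capillary endothelial cells, and 0.688, 0.922 and 2.88 for neural and 0.385, 0.989 and 1.12 for smooth muscle cells, so most turned below 1. Their rescaled correlations over all spots with both subsets were nonetheless positive. The 2 measures differ, since members and comparators were set on raw theta and not redrawn after rescaling, while the correlations used rescaled theta of the subsets as well. Among myogenic cells, activated MuSCs were at 3.01, 2.33 and 1.85 and committed myoblasts at 2.01, 1.86 and 1.82 on raw theta, and at 1.20, 0.920 and 1.12 and at 0.847, 0.715 and 1.07 after rescaling.

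**Figure D5:**
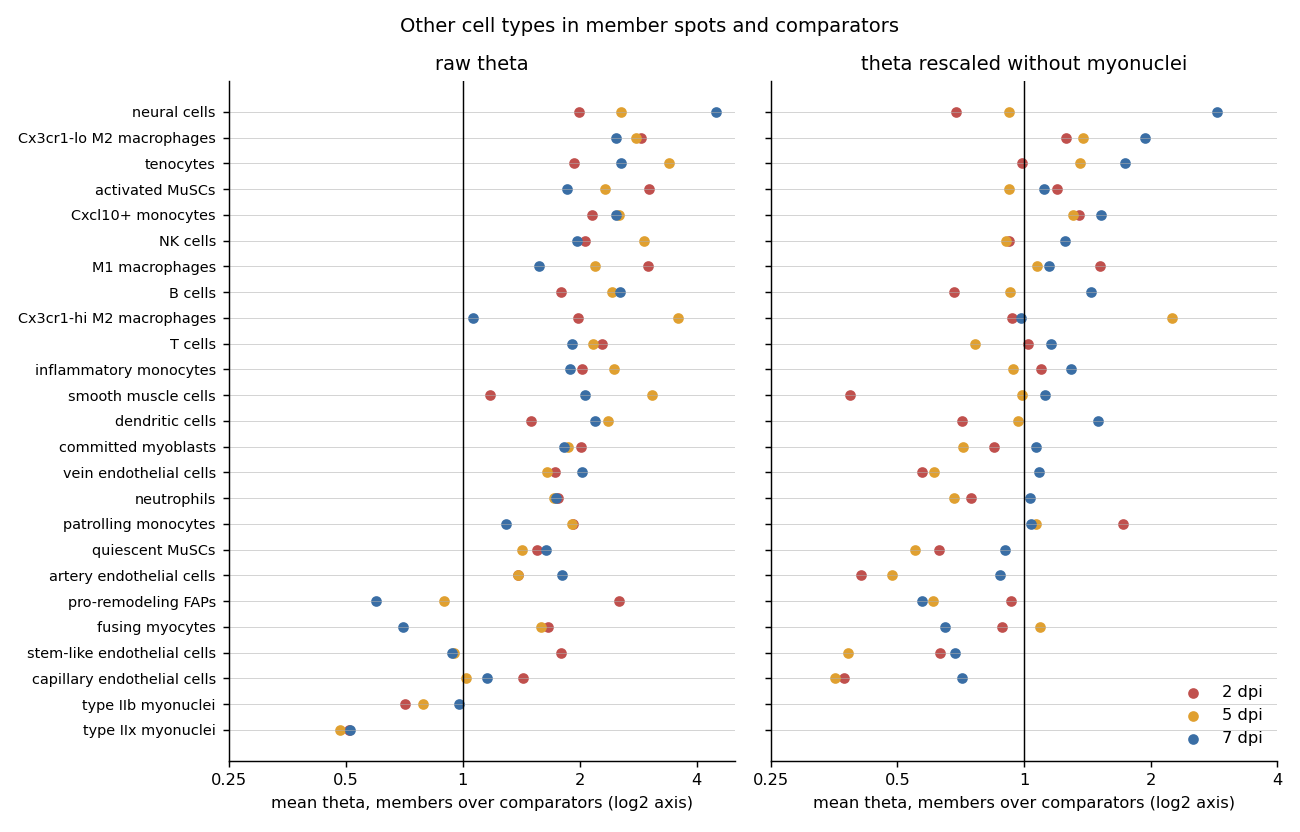
Mean theta of each other type in members over that in comparators (log2 axis), on raw theta (left) and on theta rescaled without myonuclei (right), with a point per section. On raw theta most points lie above 1 and both myonuclei types below it, while on rescaled theta the points lie on both sides of 1. Artery, capillary and stem-like endothelial cells, quiescent MuSCs and pro-remodeling FAPs lie below 1 on rescaled theta in all 3 sections.

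Adipogenic-only and stem-only spots differed from each other in their company, and not in the same way in each section. At 2 dpi, 50 spots reached 0.02 for adipogenic FAPs alone and 112 for stem FAPs alone. Adipogenic-only spots held more tenocyte theta, with a mean of 0.0335 against 0.0080, a median of 0.0098 against 0.0050 and a highest spot of 0.240 against 0.0564. Stem-only spots held more patrolling monocyte theta, with a mean of 0.127 against 0.0551 and a median of 0.106 against 0.01996. Type IIx myonuclei were at 0.0536 in adipogenic-only and 0.0221 in stem-only spots. Pro-remodeling FAPs had means of 0.0204 and 0.0213.

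At 5 dpi there were 111 adipogenic-only and 56 stem-only spots. Fusing myocytes had a mean theta of 0.186 in adipogenic-only and 0.102 in stem-only spots (a ratio of 1.825, and 1.40 within UMI groups). Cx3cr1-hi M2 macrophages had means of 0.0419 and 0.0108 (a ratio of 3.89, and 2.10 within UMI groups). Smooth muscle cells had means of 0.0212 and 0.0062, although their medians were 0.0049 and 0.0037. Type IIx myonuclei had a mean of 0.0472 and 0.106 and a median of 0.0051 and 0.0695. At 7 dpi, 163 adipogenic-only spots had a lower mean pro-remodeling theta than 67 stem-only spots, at 0.0376 and 0.0539, with medians of 0.0235 and 0.0473. Cx3cr1-hi M2 macrophages were again higher in adipogenic-only spots, with means of 0.0240 and 0.0115 and closer medians of 0.0079 and 0.0052. Spots with both subsets at 7 dpi, 39 in number, had a median tenocyte theta of 0.0215 against 0.0059 in adipogenic-only and 0.0073 in stem-only spots. They were also shallower, with a median of 5472 UMIs against 13452 and 17020. Median thetas of most other types were higher in them too, such as M1 macrophages at 0.0077 against 0.0043 and 0.0041. The part of depth in the tenocyte value was not tested.

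The highest spots held varied types besides the subsets. At 2 dpi the highest adipogenic spot (0.113, 8682 UMIs) had tenocytes at 0.107 as the next type besides myonuclei, and the highest stem spot (0.127, 10057 UMIs) had patrolling monocytes at 0.116. At 5 dpi the highest adipogenic spot (0.179, 7880 UMIs) held 0.283 of smooth muscle, and the highest stem spot (0.115, 16962 UMIs) held 0.271 of fusing myocytes and 0.113 of pro-remodeling FAPs. At 7 dpi a spot of 4878 UMIs gave adipogenic FAPs 0.429 of its transcripts, with type IIb myonuclei at 0.0694 and capillary endothelial cells next at 0.0884. The highest stem spot at 7 dpi (0.233, 5336 UMIs) had tenocytes next at 0.0537, and the following one (0.202, 4478 UMIs) held 0.238 of neural cells and 0.102 of adipogenic FAPs.

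The 10 highest spots held 8.91%, 10.9% and 13.7% of the adipogenic theta and 8.91%, 7.69% and 14.0% of the stem theta of the sections at 2, 5 and 7 dpi. At 7 dpi they were shallow, with a median of 4828 UMIs for adipogenic and 3123 for stem FAPs. Leaving out myonuclei, adipogenic FAPs were the leading type in 53, 23 and 73 spots (6.17%, 2.47% and 7.56%) and stem FAPs in 23, 17 and 18 spots (2.68%, 1.82% and 1.86%).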

How the data were processed

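Tables of values per spot were read for 3 Visium sections of mouse tibialis anterior muscle and grouped by the treatment in the labels. The submitters' processing notes name Space Ranger 1.0, Seurat 3.2.1 and Cell Ranger, with the mm10 build, and per the study's methods the authors picked spots over tissue by hand. The authors deposited UMI and gene counts per spot, which are not normalized. The deposited percent values give mitochondrial, hemoglobin and ribosomal protein transcripts of a spot. The deposited theta values are fractions that sum to 1 over 27 types, made by the authors with BayesPrism on marker genes of a single-cell reference, and the methods describe a reference with fewer types than the table. Image alignments were not used here, so no position was analysed. Spots held between 1003 and 48442 UMIs, and no further filter was applied.

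Members had adipogenic or stem FAP theta of at least 0.02 and comparators both under 0.01. For ratios of means these groups were set on raw theta, also where the theta compared was rescaled. Means weighted spots equally. Rescaled theta was divided by the sum over the 25 types without myonuclei. Ratios of observed to expected spots, Spearman's rho, and ratios of means between members and comparators were computed within each section with Python 3.11.15, numpy 2.4.6, scipy 1.17.1 and pandas 2.3.3, and plotted with matplotlib 3.10.9. Shares carry exact Clopper-Pearson intervals at 95%. The code was tested on simulated data.

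The members, the types and the tests were chosen with earlier results of these data known. Types given with values were the 3 FAP types, both myonuclei types, fusing myocytes, tenocytes, smooth muscle, neural, artery, capillary and vein endothelial cells, patrolling monocytes, both M2 macrophage types, and for each subset and scale the 3 types with the highest and the 1 with the lowest mean rho over sections. Any other type that is named was chosen after its values were seen. Alternatives were theta rescaled without myonuclei, the centred log-ratio, Pearson's r, the partial rank correlation given UMIs, spots with 5000 to 10000 UMIs, limits of 0.01 or 0.05, UMI weights, medians and 5 UMI groups. Leaving out the 10 highest spots, and the depth alternatives for the types outside the FAPs, were added after seeing the data.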

Additional observations from a re-analysis of the deposited data

Results flagged for a closer look

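For 2 types the mean theta in members was clearly above that in comparators in some section and clearly below it in another, past the tolerance set for ratios both ways. The difference between sections was not tested, since each time point had 1 section. The mean theta of fusing myocytes in members was 1.66 times that in comparators at 2 dpi, 1.59 times at 5 dpi and 0.702 times at 7 dpi. The mean theta of pro-remodeling FAPs was 2.52 times at 2 dpi, 0.894 times at 5 dpi and 0.599 times at 7 dpi. Within groups of like UMI count the ratios were 1.81, 1.74 and 0.818 for fusing myocytes and 2.81, 0.978 and 0.688 for pro-remodeling FAPs. Stem-like endothelial cells, named here after their values were seen, also crossed 1, at 1.79, 0.947 and 0.936.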

How the results depend on the processing

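Of 791 alternative values for 315 results, 545 moved by less than the tolerance set for ratios and rho (0.1 for rho), 230 moved further and 16 turned a value that lay past the tolerance. In all, 57 lay on the other side of no difference, 26 of them by less than the tolerance. Pairing between time points was not possible because each time point had 1 section, and no result came from a test. Over spots the median gave a ratio for adipogenic FAPs of 0.952 (5 over 2 dpi, turned) and 1.23 (7 over 2 dpi), and for stem FAPs of 1.09 (7 over 5 dpi). Rescaling without myonuclei gave 1.29 for adipogenic FAPs (7 over 2 dpi), 0.926 and 1.02 for stem FAPs (5 over 2 and 7 over 5 dpi), and turned the ratios of member shares to 0.921 (7 over 5 dpi) and 0.899 (7 over 2 dpi). A minimum theta of 0.05 gave member share ratios of 1.17 (5 over 2 dpi) and 2.02 (7 over 2 dpi), the UMI-weighted joint share of FAP theta a ratio of 0.413 (7 over 2 dpi), and a minimum of 0.01 an observed over expected ratio of 1.37 at 7 dpi. For adipogenic with stem FAPs, rho was 0.42 and 0.50 at 2 and 7 dpi rescaled, 0.26 and 0.13 at 2 and 5 dpi by centred log-ratio, and 0.27 at 7 dpi given UMIs, and Pearson's r was 0.15, 0.13 and 0.24. For adipogenic with pro-remodeling FAPs at 2, 5 and 7 dpi, rho was 0.41, -0.53 and -0.62 rescaled and 0.28, -0.33 and -0.61 by centred log-ratio, Pearson's r was 0.16, -0.061 and -0.19, and spots of 5000 to 10000 UMIs gave 0.19 and 0.0020 at 5 and 7 dpi. For stem with pro-remodeling FAPs, rho was 0.30, -0.31 and -0.35 rescaled and 0.24, -0.20 and -0.31 by centred log-ratio, Pearson's r was 0.28 and 0.010 at 2 and 5 dpi, values given UMIs were 0.22 and -0.025 at 5 and 7 dpi, and spots of 5000 to 10000 UMIs gave 0.23 and 0.16. Members over comparators for pro-remodeling FAPs were 4.23, 1.44 and 0.474 by medians and, rescaled at a minimum of 0.05, 0.361 and 0.414 at 5 and 7 dpi, and type IIb myonuclei were 0.526 and 0.777 at that minimum. In the 5000 to 10000 UMI spots rho also turned for adipogenic FAPs with type IIx myonuclei at 5 dpi (0.066), and at 7 dpi for adipogenic FAPs with type IIb myonuclei (-0.15), fusing myocytes (0.16) and neural cells (-0.050), and for stem FAPs with fusing myocytes (0.11), neural cells (-0.0085), artery (-0.022) and vein endothelial cells (-0.040), and rescaled patrolling monocytes (-0.000105). The cause of these changes was not tested. That band held 305, 255 and 163 spots, and thetas near the floor of shallow spots limit every value.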
